A study of Mus musculus with 14 samples.

Results

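The miR-17-92 cluster is a set of 6 microRNA hairpins that are cut from 1 long primary transcript. Its members were taken from the deposited table of microRNA levels by assay number: 2308 (miR-17), 2422 (miR-18a), 395 (miR-19a), 580 (miR-20a), 396 (miR-19b), and 430 or 431 for miR-92a. Of the 516 rows of the table, 6 were members (430 was present for miR-92a and 431 was not). The table pairs no assay number with a name, and the names used here follow the manufacturer's numbering of TaqMan assays, which could not be checked against the files.

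Levels were measured in lungs of outbred ICR mice at 7 time points from the branching stage to the adult. There were 2 samples each at embryonic days 12, 14, 16 and 18 (E12 to E18), at postnatal days 2 and 10 (P2 and P10) and in the adult, 14 samples in all. All samples are labelled female, and none was treated or carries a named mutation. The adult stage is given in the study as P30. The RNA came from pooled lungs of the whole organ, so fewer cells of a type and less microRNA per cell cannot be told apart. No source says that paired samples of 1 age were separate pools of animals, so the p-values cover the spread between the deposited samples alone, and that spread may be technical.

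MicroRNAs bind messenger RNAs mainly through their seed, bases 2 to 8 from the 5′ end, and lower the output of the bound messages. The miR-17-92 cluster is driven by Myc and E2F factors, is amplified in some lymphomas, and was also named oncomir-1. In the mouse lung it is known as a cluster of the early, dividing epithelium. Mice that lack it have small lungs and die soon after birth, and extra copies in the lung epithelium keep progenitor cells dividing. Known targets include the cell cycle genes E2f1 and Rbl2 and the death gene Bcl2l11 (Bim) for miR-17 and miR-20a. MiR-18a is known to target Ctgf, and miR-92a the integrin subunit Itga5 in endothelium.

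The mature sequences of the 6 members are shown because their seeds set them into 4 groups and because near copies limit what each assay can be taken to measure. They are RefSeq sequences of mouse build GRCm38.p6, 5′ to 3′, with the seed in capitals.
miR-17: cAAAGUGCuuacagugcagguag
miR-20a: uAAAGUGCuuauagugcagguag
miR-18a: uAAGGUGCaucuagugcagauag
miR-19a: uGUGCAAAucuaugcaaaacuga
miR-19b: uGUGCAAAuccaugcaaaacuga
miR-92a: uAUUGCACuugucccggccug

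MiR-17 and miR-20a share the seed AAAGUGC and differ by C1U and C12U, with positions counted from the 5′ end and the base of miR-17 first. MiR-19a and miR-19b share the seed GUGCAAA and differ by U11C only. MiR-18a has a seed of its own within the cluster, which differs from that of miR-17 by A4G, and so has miR-92a. Of 1679 mature mouse microRNA names in the RefSeq table, 7 carry the seed of miR-17 and miR-20a, 2 that of miR-18a, 2 that of the miR-19 members and 6 that of miR-92a.

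Some of these names are microRNAs of the related clusters on chromosomes X and 5, and their closest copies are shown because they differ from a member by 1 or 2 bases.
miR-106a: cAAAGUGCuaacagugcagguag
miR-20b: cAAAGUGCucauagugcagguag
miR-18b: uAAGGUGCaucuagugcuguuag

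MiR-106a differs from miR-17 by U10A alone, miR-20b differs from miR-20a by U1C and U10C, and miR-18b differs from miR-18a by A18U and A20U. The mature miR-19b and miR-92a sequences are each encoded at 2 loci, in the cluster on chromosome 14 and again on chromosome X (Mir19b-2 and Mir92-2). The values of these 2 members therefore sum over both loci, and how far each of the other assays also reads a near copy was not tested.

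The 6 hairpins lie within 836 bases on the plus strand of chromosome 14 of GRCm38.p6, from 115043671 to 115044506, in the order miR-17, miR-18a, miR-19a, miR-20a, miR-19b-1 and miR-92a-1. The gaps between neighbours run from 35 to 96 bases. The annotated host gene Mir17hg, a long noncoding RNA, spans 115044390 to 115046728 in that annotation, so that only 1 of the 6 hairpins, that of miR-92a, lies wholly inside it. The hairpins of miR-18a (Mir18, 115043851 to 115043946) and miR-92a (Mir92-1, 115044427 to 115044506) are shown because these members fell most and least between E12 and adult, as described below. The mature strand is in capitals.
Mir18: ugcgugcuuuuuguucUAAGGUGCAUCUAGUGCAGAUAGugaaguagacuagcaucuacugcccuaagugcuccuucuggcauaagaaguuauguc
Mir92-1: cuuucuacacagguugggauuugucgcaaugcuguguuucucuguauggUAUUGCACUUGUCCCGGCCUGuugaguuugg

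The level is given as ΔCT, the threshold cycle of the assay minus the threshold cycle of U6 (a small nuclear RNA) in the same sample. The level is the higher the lower the ΔCT, and with full amplification each cycle stands for a factor of 2. All 6 members were measured in all 14 samples. All 84 member values lay within 0.1 cycle of whole-cycle steps of their own sample, so the values resolve about 1 cycle, and an SD of 2 samples does not measure a finer spread. Over the series, 272 to 335 assays were measured per sample and 219 in all 14. The mean ΔCT of these 219 ran from 9.94 in E18 replicate 1 to 11.6 in E12 replicate 1. Because this mean moved with age, each result below is given against U6 and against this mean of the same sample (the global mean).

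All 6 members fell over lung development. Against U6, their means stayed within about 1 cycle of the E12 level through E18, and were 2 to 5 cycles lower in the adult. MiR-18a fell most, 23.5-fold between E12 and adult, and miR-92a least, 4.16-fold. When scaled to the global mean, the fall began earlier. All 6 were then called lower between E12 and E18, as were 15.7% of all assays tested. Against U6 none of the 6 was called over this interval, and 2% of all assays were called lower.

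In the group with the seed AAAGUGC, miR-17 had ΔCT values of 4.0 and 3.14 at E12, 4.21 and 4.11 at E14, then 4.06 and 4.21 at E16, then 4.06 and 4.08 at E18, 6.16 and 5.24 at P2, 6.07 and 6.05 at P10, and finally 6.11 and 7.15 in the adult. The 8 embryonic samples reached at most 4.21 cycles and the 6 postnatal samples were at 5.24 or more, so the 2 ages did not overlap. MiR-20a had 6.01 and 5.16 at E12, 6.23 and 6.15 at E14, then 6.06 and 6.22 at E16, then 6.06 and 7.10 at E18, 8.18 and 8.28 at P2, 8.06 and 9.07 at P10, and finally 8.13 and 9.16 in the adult. It was about 2 cycles above miR-17 in 11 samples and about 3 cycles above it in 1 sample each of E18, P2 and P10. Its embryonic and postnatal values did not overlap either.

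MiR-18a had the highest ΔCT, that is the lowest level, of the 6 in every sample. Its values were 10.00 and 10.17 at E12, 10.23 and 10.13 at E14, then 10.07 and 10.23 at E16, then 11.09 and 11.09 at E18, 14.19 and 13.28 at P2, 13.06 and 13.06 at P10, and finally 14.13 and 15.15 in the adult. Both E18 samples were about 1 cycle lower in level than the 6 earlier ones, and every postnatal sample was lower than every embryonic one, with a gap of 1.96 cycles. This was the widest gap of the 6 members.

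In the group with the seed GUGCAAA, miR-19a had 7.02 and 6.16 at E12, 6.21 and 6.15 at E14, then 6.09 and 6.24 at E16, then 6.06 and 7.13 at E18, 8.16 and 8.26 at P2, 9.07 and 9.09 at P10, and finally 9.14 and 9.15 in the adult. The 2 highest embryonic values, 1 each at E12 and E18, still lay about 1 cycle below the lowest postnatal one. MiR-19b had 3.0 and 3.18 at E12, 3.24 and 3.13 at E14, then 3.07 and 3.23 at E16, then 3.09 and 3.11 at E18, 5.17 and 4.29 at P2, 5.10 and 5.07 at P10, and finally 5.13 and 6.16 in the adult. Its 8 embryonic values all lay on the same whole cycle and spanned 0.24 cycles, which is below the resolution. The embryonic values of each other member spanned 1 or 2 whole-cycle steps against U6. The distance between miR-19a and miR-19b was about 3 or about 4 cycles in every sample.

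MiR-92a had 7.01 and 6.15 at E12, 7.22 and 7.12 at E14, then 7.07 and 7.21 at E16, then 7.07 and 7.09 at E18, 8.16 and 8.27 at P2, 9.08 and 9.07 at P10, and finally 8.11 and 9.15 in the adult. The embryonic and postnatal values did not overlap, with the smallest gap of the 6 members, 0.90 cycles. Against U6 its highest mean ΔCT was at P10, whereas the other 5 members had theirs in the adult. For miR-19a and miR-20a this was by less than 0.1 cycle, and against the global mean they too had theirs at P10. The log2 difference of miR-92a from P10 to adult was 0.44 against U6 and was not called. It ranged from -0.079 to 0.96 when each sample was left out.

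**Figure D1:**
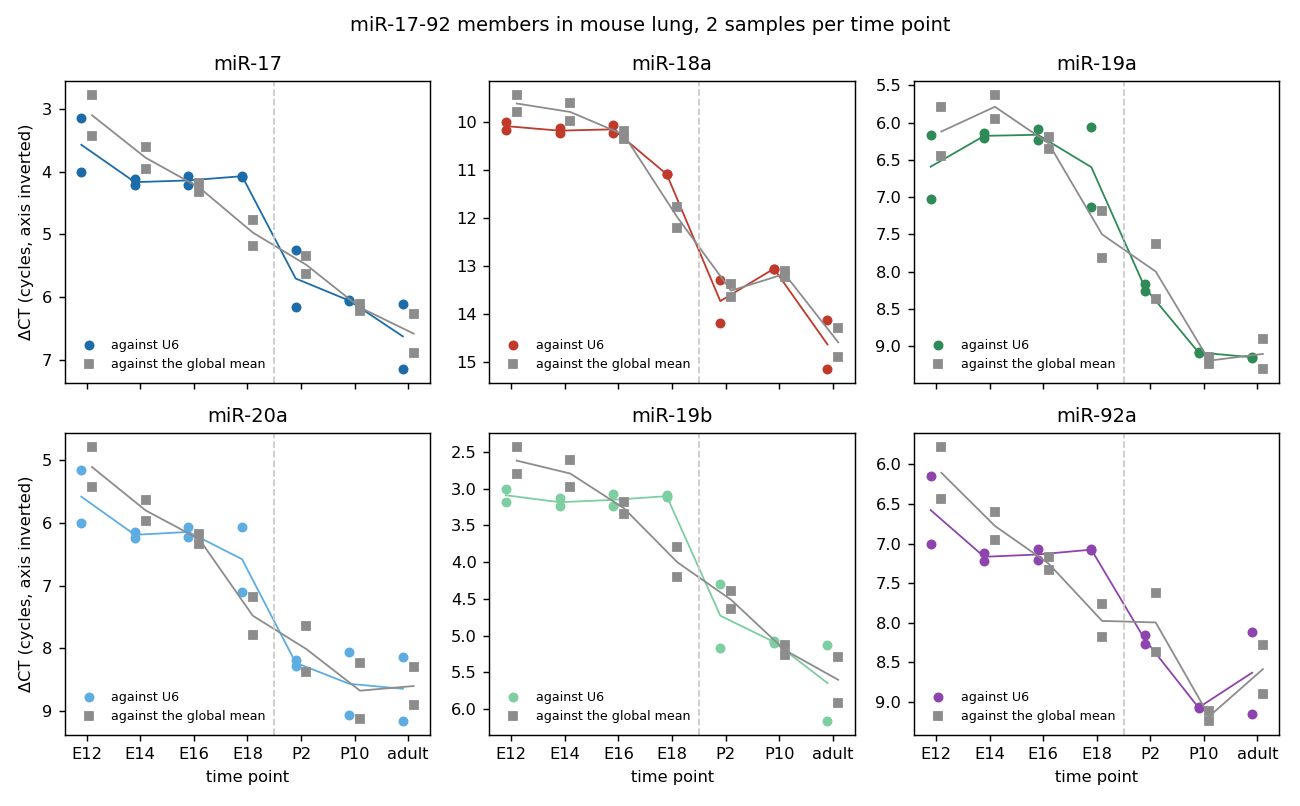
ΔCT (cycles, axis inverted so that up is a higher level) of each member by time point. Circles are the 2 samples against U6, grey squares the same samples against the global mean of 219 assays, lines join the means, and the dashed line divides embryonic from postnatal ages. Against U6 the means of all 6 members stay within about 1 cycle of E12 through E18, and every postnatal sample is lower in level than every embryonic one. Against the global mean they decline from E12 (miR-19a from E14) through E18. After birth some of these means rise in level, that of miR-18a from P2 to P10 and those of miR-19a, miR-20a and miR-92a from P10 to adult.

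The absence of overlap between embryonic and postnatal samples held for 6 of 6 members against U6. Among the 219 assays measured in all samples, 13.2% had every postnatal sample below every embryonic one. Against the global mean it held for miR-17, miR-18a and miR-19b, with gaps of 0.16, 0.91 and 0.18 cycles, and 8.22% of the 219 assays met it. MiR-19a, miR-20a and miR-92a then overlapped by 0.18, 0.14 and 0.56 cycles, in the range between E18 and P2.

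Among all assays measured in a sample, miR-19b and miR-17 were among the highest in the early lung. MiR-19b was 1st or 2nd by ΔCT at E12, 1st at E14 and E16, 4th at E18, 5th at P2, 9th and 10th at P10, and finally 14th and 21st in the adult. MiR-17 was 2nd and 1st at E12, 5th and 6th at E18, and 21st and 30th in the adult. The rank of miR-18a went from 63 and 97 at E12 to 204 and 216 in the adult. MiR-19a, miR-20a and miR-92a held ranks of 7 to 42 in the embryo and 31 to 73 after birth. In E14 replicate 2 the ranks leave out 5 values below 0.001, which were set missing and would rank ahead of all members. A rank within a sample does not use U6 as such, but assays on the same whole cycle are ordered only by their small decimals, and assays differ in how well they amplify.

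**Figure D2:**
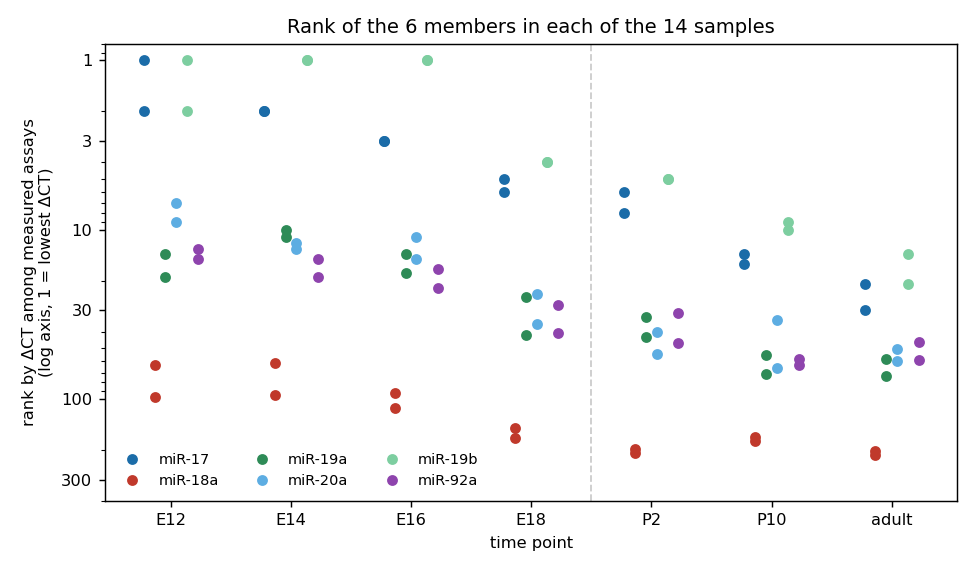
Rank of each member by ΔCT among the assays measured in the same sample (log axis, 1 is the lowest ΔCT and so the highest level). Each point is 1 of the 14 samples, and the dashed line divides embryonic from postnatal ages. MiR-19b moves from 1 and 2 at E12 to 14 and 21 in the adult, and miR-18a from 63 and 97 to 204 and 216.

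The order of the levels by ΔCT was nearly fixed. MiR-19b came first and miR-17 second, 0.95 to 1.00 cycles apart in 13 samples. In E12 replicate 2 they lay on the same cycle, 0.04 cycles apart. MiR-20a, miR-19a and miR-92a followed, and at every time point 2 neighbours of these 3 lay less than 0.03 cycles apart in their means, which is no difference at this resolution. MiR-18a was last, 3 to 6 cycles above the next member. Since ΔCT depends on each assay's efficiency, this order is one of assay signal and not of copy number.

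Whether the members changed over the 7 time points was tested with limma's moderated F test over 350 assays (each measured in the full pair of samples of 1 time point or more), with Benjamini-Hochberg adjustment. All 6 changed, with adjusted p of 0.00197 for miR-17, 5.67e-05 for miR-18a, 4.91e-04 for miR-19a, 0.00279 for miR-20a, 0.00143 for miR-19b and 0.00387 for miR-92a. Of all 350 assays, 56.9% changed. Scaled to the global mean, all 6 changed too, and so did 58.3% of all assays. Criteria after those of the study's methods for a dynamic microRNA, applied here to the deposited ΔCT and to limma's test (a significant change, a ΔCT below 10 at the time point with the highest level, and means that span more than 2.2) were met by 5 of 6 members, against 22.9% of the 350 assays. MiR-18a was outside by its level alone, with a lowest mean ΔCT of 10.08, close to the limit of 10. These counts come from the values used here and do not give the list of microRNAs that the study called dynamic. With the global mean the lowest mean ΔCT of miR-18a was 9.61, and all 6 met the criteria. The share of all assays that met them with the global mean is not given, so this number does not set the members apart. Of the 5 members inside against U6, miR-92a and miR-19b were nearest to the limit of the range, with 2.5 and 2.56 cycles. The number was lower without E12 replicate 2 or without adult replicate 2, and the share of all assays is not given for these fits.

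The ends of the course were compared first. Between E12 and adult all 6 members fell, and 23.4% of the 350 assays were called lower. The log2 difference was -4.55 for miR-18a (SE 0.41, adjusted p 2.70e-05 with limma), a fall of 23.5-fold. It was -3.06 for miR-17 (SE 0.46, adjusted p 4.68e-04) and -3.06 for miR-20a (SE 0.53, adjusted p 0.00109), falls of 8.34-fold and 8.37-fold. The 2 miR-19 members fell 5.87-fold and 5.88-fold, with log2 differences of -2.55 and -2.56 and the same adjusted p of 6.69e-04. MiR-92a fell 4.16-fold, with a log2 difference of -2.06 (SE 0.40, adjusted p 0.00240). The median over all 350 assays was 0 and that of the members -2.81. All 6 also fell against the global mean, by 5.60-fold (miR-92a) to 31.6-fold (miR-18a), and 31.7% of all assays were called lower. Leaving out any 1 sample was done against U6 only. There all 6 differences stayed negative, from -5.07 to -4.04 for miR-18a and from -2.58 to -1.54 for miR-92a.

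**Figure D3:**
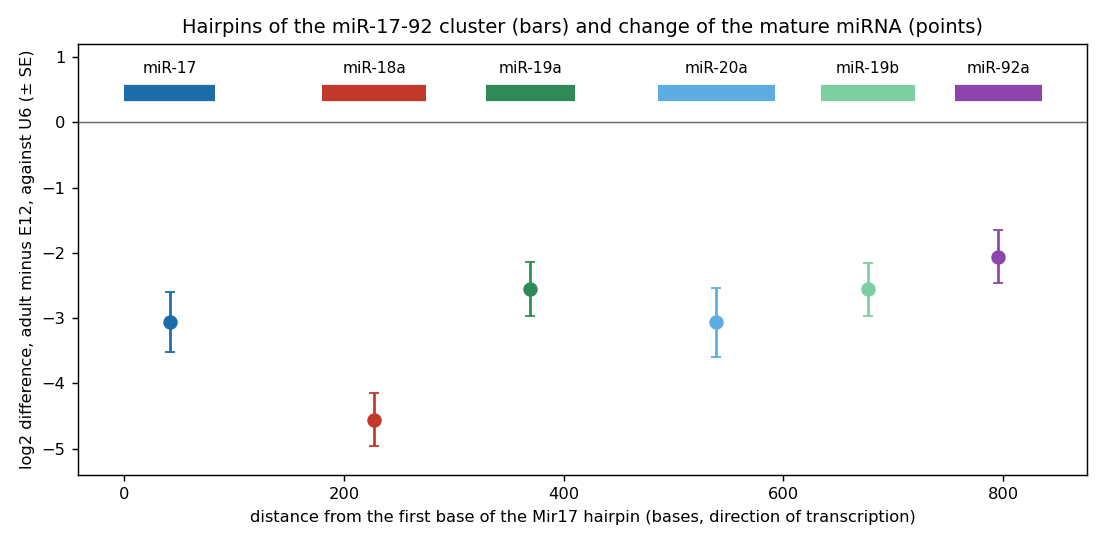
Hairpins of the cluster (bars) by distance in bases from the first base of the Mir17 hairpin, in the direction of transcription, and the log2 difference of each mature microRNA between adult and E12 against U6 (points with SE, 2 samples per group). The difference of miR-18a, the second hairpin, is -4.55, that of miR-92a, the last, is -2.06, and the others lie between -3.06 and -2.55.

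The comparison of postnatal with embryonic ages (the mean of 3 against the mean of 4 time points) uses all 14 samples. All 6 members were lower after birth, and 35.7% of all assays were called lower. The fall was 10.8-fold for miR-18a (log2 difference -3.44, SE 0.22, adjusted p 2.32e-06 with limma), 5.39-fold for miR-19a, 5.12-fold for miR-20a, 4.42-fold for miR-17, 4.06-fold for miR-19b and 3.14-fold for miR-92a (log2 difference -1.65, SE 0.22, adjusted p 1.94e-04). The falls against the global mean were close to these, from 2.95-fold for miR-92a to 10.2-fold for miR-18a. All 6 were called, and 36.9% of all assays.

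When the fall took place depended on the scaling. Between E12 and E18, none of the 6 members was called against U6, and 2% of all assays were called lower. MiR-18a (unadjusted p 0.0369) was the only member with an unadjusted p below 0.05. The log2 differences were -1.0 for miR-18a and miR-20a, -0.50 for miR-17 and miR-92a, and -0.01 for both miR-19 members, while the median of all 350 assays was 0.99. In contrast to U6, all 6 were called lower against the global mean, and 15.7% of all assays, with differences of -2.38 for miR-18a, -2.37 for miR-20a, -1.87 for miR-17 and miR-92a, -1.38 for miR-19a and -1.38 for miR-19b. The median of all assays was then -0.38. The mean ΔCT of the 219 assays was 11.6 and 11.4 at E12 and 9.94 and 10.4 at E18. The assays as a whole thus rose against U6 over this interval, and no member did so beyond its error.

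Around birth, between E18 and P2, miR-17, miR-18a, miR-19a and miR-19b were called lower against U6, and 23.1% of all assays. The log2 differences were -2.65 for miR-18a (adjusted p 0.00614 with limma), -1.63 for miR-17 (0.0373), -1.62 for miR-19a (0.0286) and -1.63 for miR-19b (0.0275). MiR-20a had a difference of -1.65 (adjusted p 0.0526) and miR-92a of -1.14 (0.0741), which did not pass. The median of all assays was -1.13, close to the value of miR-92a. MiR-18a alone was called against the global mean, with -1.53 (adjusted p 0.0356), against 2% of all assays, and the other 5 lay between -0.53 and -0.02. The number of members called against U6 changed when a sample was left out, also when it was an adult sample, which enters through the shared spread. The share of all assays is not given for these fits, so that number does not set the members apart.

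The run files of the card with the 6 members (card A) were last saved on several days, which need not be the days of the runs. E18 replicate 2 and P2 replicate 1 shared a save day. Between these 2 samples the log2 difference was -2.08 for miR-17, -3.09 for miR-18a, -1.03 for miR-19a, -1.08 for miR-20a, -2.05 for miR-19b and -1.08 for miR-92a, with a mean of -1.22 over the 219 assays. All 6 were therefore lower at P2 between these 2 samples against U6, with no replicate, and so was the mean of the 219 assays. MiR-19a, miR-20a and miR-92a fell less than that mean. The share of all assays that were lower between these 2 samples is not given here, so the fall does not set the members apart. Against the global mean the values were -0.87 for miR-17, -1.88 for miR-18a and -0.84 for miR-19b, but 0.18 for miR-19a, 0.14 for miR-20a and 0.14 for miR-92a, so 3 of the 6 were then slightly higher at P2. E12 and adult shared no save day, so save day and age cannot be told apart in that comparison.

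From E18 to the adult all 6 members fell against U6, and 29.1% of all assays were called lower. The log2 difference was -3.55 for miR-18a (11.7-fold), -2.56 for miR-17, -2.55 for miR-19a, -2.54 for miR-19b, -2.07 for miR-20a and -1.56 for miR-92a (2.94-fold). With the global mean 4 of 6 were called, and 20.6% of all assays. The 2 exceptions were miR-20a, with a log2 difference of -1.12 (adjusted p 0.0764 with limma), and miR-92a, with -0.61 (0.239). These 2 also lost their call against U6 without E18 replicate 1 (adjusted p 0.109 and 0.0653) or without adult replicate 2 (0.103 and 0.0958), and miR-92a without E18 replicate 2 (0.0557). The comparisons share samples, so they are not independent of each other.

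The other successive steps gave few calls. Against U6 none of the 30 member differences at the steps E12 to E14, E14 to E16, E16 to E18, P2 to P10 and P10 to adult was called by limma. The differences lay between -0.61 and 0.41 from E12 to E14, 0.01 and 0.05 from E14 to E16, -0.94 and 0.07 from E16 to E18, -0.87 and 0.68 from P2 to P10, and -1.58 and 0.44 from P10 to adult. At an unadjusted p below 0.05 there were 2, those of miR-18a from E16 to E18 (log2 difference -0.94, p 0.0481) and from P10 to adult (-1.58, p 0.00393, adjusted p 0.0510). Of all assays, 0.857% were called lower between E16 and E18, 6.29% between P2 and P10, and 2.86% between P10 and adult. Against the global mean, miR-18a was the only member called at these steps, from E16 to E18 (adjusted p 0.0240) and from P10 to adult (-1.43, adjusted p 0.0219). The share of all assays was 1.71% for E16 to E18, 8% for P2 to P10 and 3.71% for P10 to adult. No share is given for E12 to E14 or E14 to E16 under either scaling, so the lack of calls there does not set the members apart.

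**Figure D4:**
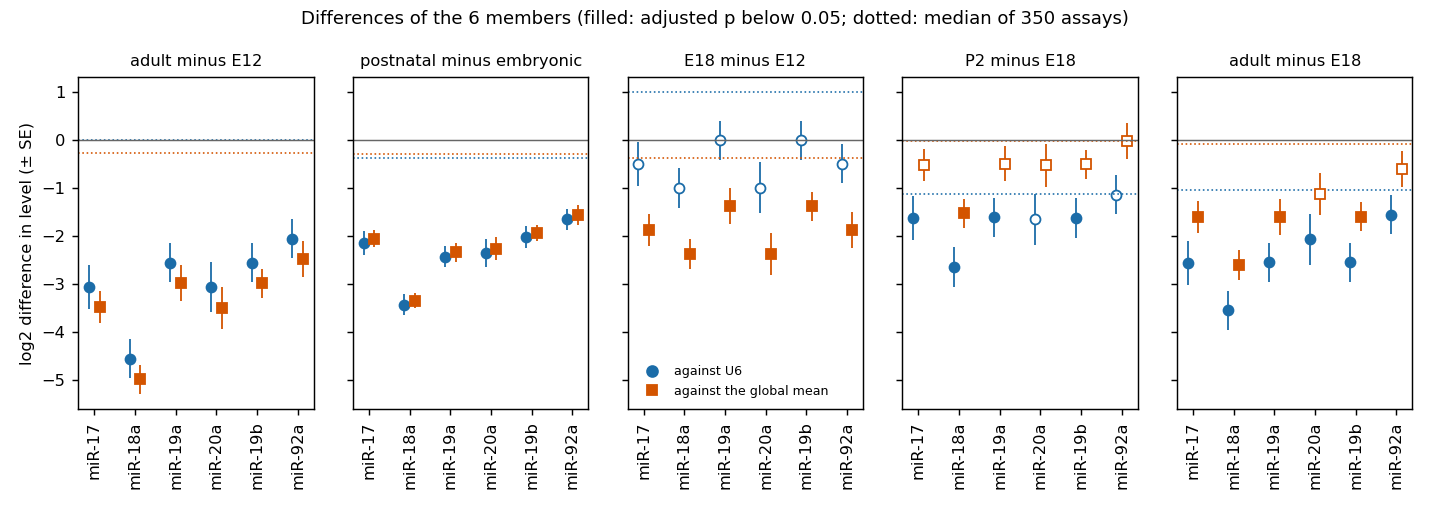
Log2 difference in level of each member (y axis, with SE) in 5 comparisons, against U6 (blue circles) and against the global mean (orange squares). Filled symbols have an adjusted p below 0.05 and dotted lines are the median of all 350 assays. The scalings give near-equal values for postnatal against embryonic ages, and differ most between E12 and E18, where the members are called only against the global mean, and between E18 and P2.

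The hairpins of 1 primary transcript are cut out separately. To see whether the members changed equally, each was set against miR-17 of the same sample, which removes U6. MiR-18a was 6.01 and 7.03 cycles above miR-17 at E12, 6.02 and 6.01 at E14, then 6.01 and 6.02 at E16, then 7.03 and 7.01 at E18, 8.02 and 8.04 at P2, 7.00 and 7.01 at P10, and lastly 8.02 and 8.0 in the adult. The distance was 6 cycles in 5 of the 6 samples from E12 to E16, and 7 or 8 cycles in all later samples. The log2 difference relative to miR-17 between adult and E12 was -1.49 (SE 0.35, adjusted p 0.00369 with limma over 349 assays), and 8.6% of these assays were called lower. It was -0.98 (adjusted p 0.0105) without E12 replicate 1, in which the distance was 6 cycles. Between postnatal and embryonic ages, a comparison chosen after seeing the data, it was -1.29 (SE 0.19, adjusted p 1.85e-04 with limma). In that comparison 10.9% of assays were called lower.

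MiR-92a was 3 cycles above miR-17 in all 8 embryonic samples. After birth the distance was 2.00 and 3.02 at P2, then 3.02 in both P10 samples, and 2.01 and 2.00 in the adult. Relative to miR-17 it was higher by 1.00 in the adult than at E12 (SE 0.35, adjusted p 0.0276 with limma), but 62.2% of the 349 assays were called higher in this comparison, so the call does not set miR-92a apart from the assays in general. It was lost without E12 replicate 1 (adjusted p 0.0614), without E12 replicate 2 (0.0660) and without adult replicate 2 (0.0528). Between postnatal and embryonic ages, again a comparison chosen after seeing the data, 63.9% of assays were called higher. The difference of miR-92a was 0.49 (SE 0.19, adjusted p 0.0379 with limma). This call was lost without any 1 sample of E14, E16 or P10 (adjusted p 0.0599 to 0.0786) and without P2 replicate 1 (0.32, adjusted p 0.0543).

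The other 3 members were not called against miR-17 between E12 and adult. MiR-20a, which shares its seed, differed by -0.0045 (SE 0.49, adjusted p 0.998 with limma). MiR-19a differed by 0.51 (SE 0.49, adjusted p 0.378) and miR-19b by 0.50 (SE 0.35, adjusted p 0.224). A p above the threshold does not show that these members changed as miR-17 did, since values move in steps of 1 cycle with 2 samples per time point. MiR-19b was called without E12 replicate 1 (1.02, adjusted p 0.00890), in which it was 1 cycle below miR-17 in ΔCT.

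**Figure D5:**
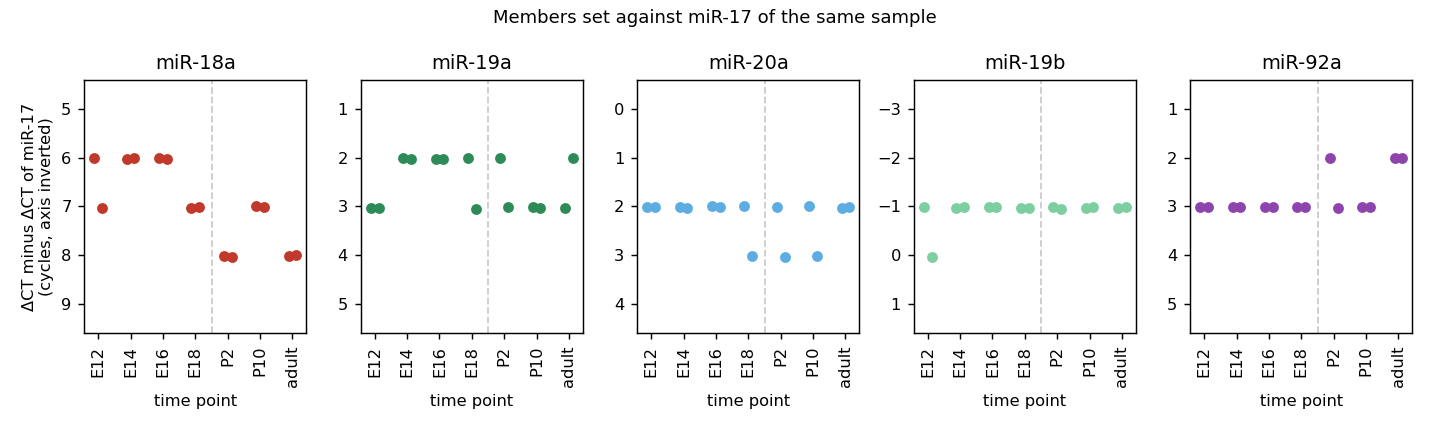
ΔCT of 5 members minus ΔCT of miR-17 in the same sample (cycles, axis inverted so that up is a higher level relative to miR-17), by time point. Each point is 1 of the 14 samples, the dashed line divides embryonic from postnatal ages, and each panel spans the same number of cycles. MiR-18a moves from 6 or 7 cycles at E12 to 8 in the adult, and miR-92a from 3 to 2.

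Over the 14 samples the ΔCT values of the members moved together, with Pearson r between 0.855 and 0.975 for the 15 pairs and a median of 0.924. It was between 0.851 and 0.978 with the global mean. These values describe samples that share U6 and age groups, and they carry no test.

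Among 213 other assays measured in all samples, the 2 whose ΔCT followed the mean of the members most closely were assays 1186 (r = 0.979 over 14 samples) and 2459 (r = 0.971). No source used here gives their names. Assay 1186 was at 9.02 and 8.15 cycles at E12 and at 13.18 and 14.20 in the adult, a log2 difference of -5.10. Assay 2459 was at 4.99 and 5.16 at E12 and at 7.11 and 8.15 in the adult, a log2 difference of -2.56, the same as that of miR-19b. With the global mean 2459 was the closest and 1186 the 4th.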

How the data were processed

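The authors deposited 1 table of ΔCT values (log2 scale, CT of the microRNA minus that of U6) from TaqMan Low Density Array cards. According to the methods, undetermined reactions and high CT values were set to a limit, but 2888 cells of the deposited table are blank. The 28 run files hold the plate layout and were used for well positions and save days only. CT and U6 values were not used here.

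The sign of ΔCT was turned so that higher is more. Each blank received the highest ΔCT of the table, 19.85, and 5 values below 0.001 in E14 replicate 2 were set missing. No value of a member was set missing or filled in, but the ranks in E14 replicate 2 leave these 5 values out. The linear models and tests came from limma 3.58.1 under R 4.3.3 (1 mean per time point, all 14 samples, two-sided moderated tests), adjusted by Benjamini-Hochberg over 350 assays within each comparison, with 0.05 as the threshold. The number of samples limits the precision. The script was tested on simulated data. The global mean is the mean ΔCT of 219 assays.

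The members and lists were chosen with earlier results of these data known. The rule names all members, given by ranges at the minor steps, and of other assays the 2 most like the cluster. The related clusters and tissue markers were not analysed here by name. Alternatives were the scaling, filters, blanks as missing, the ordinary test, a variance trend, replicate and save-day blocks, and leaving out each sample.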

Additional observations from a re-analysis of the deposited data

How the results depend on the processing

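The fall of the 6 members between E12 and adult, and between embryonic and postnatal ages, was called under every alternative in processing or test. Without any 1 sample, which was run against U6 only, all 6 differences stayed negative in these 2 comparisons. With the global mean, the number called was 6 for E12 to E18, 1 for E16 to E18, 1 for E18 to P2 and 1 for P10 to adult. With the global mean and only assays measured in all samples it was 6, 2, 1 and 1, and 2 from P2 to P10. From P10 to adult it was 1 with only assays measured in all samples and 1 with blanks as missing. The share of all assays called is not given for the settings that drop assays or keep blanks as missing. Nor is it given where a sample was left out. The numbers of members under all these settings therefore do not set the cluster apart. Leaving out each sample gave 0 to 1 for E12 to E18, 1 to 6 for E18 to P2 and 0 to 1 for P10 to adult. The cause was not tested.

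Relative to miR-17, the difference between adult and E12 ranged from -0.0100 to 1.02 for miR-19a, from -0.012 to 0.0029 for miR-20a, from -0.012 to 1.02 for miR-19b and from 1.00 to 1.01 for miR-92a when each sample was left out. For postnatal against embryonic ages, an alternative chosen after seeing the data, miR-19b ranged from -0.0056 to 0.25. Between E12 and E18, miR-19a ranged from -0.54 to 0.53 and miR-19b from -0.10 to 0.075, and miR-19b was at 0.025 with the save day as a random block, all uncalled.

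The replicate numbers do not pair the samples: 3 of 21 correlations of same-numbered deviations were above 0.1 (median -0.02). With the replicate number as a block, 3 instead of 4 members were called from E18 to P2, miR-17 having an adjusted p of 0.0523 (limma). The share of all assays is not given for this block, so that number does not set the members apart. Steps of 1 cycle, 2 samples per time point and the behaviour of U6, which was not measured against another control here, limit all values.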
